A study of Mus musculus with 4 samples.

Results

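Insulin-like growth factor 1 (Igf1), its receptor and the insulin receptors, and the binding proteins Igfbp2 to Igfbp7 were followed through 4 days of mouse gonad development. The 10 genes were taken by their symbols from the 40999 listed features, and each symbol had 1 row in every library. They comprise the ligand Igf1, the 3 receptors Igf1r, Insr and Insrr, and 6 binding proteins. All 10 were among the 20114 genes that passed the filter on low counts, although Insrr and Igfbp6 stayed under 100 counts in every library.

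Total RNA was sequenced from wild-type C57BL/6J gonads on each embryonic day (E) from E11.5 to E14.5, with XX and XY gonads mixed and 1 library per day. Each pool held at least 6 gonads of males and 6 of females, taken from 2 litters, so the sexes cannot be separated here. The mesonephros, the embryonic kidney that lies beside the gonad, was kept with the gonad at E11.5 and removed from E12.5 on. That difference in dissection and the step from E11.5 to E12.5 therefore cannot be told apart.

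IGF1 and IGF2 are secreted growth factors that signal through the IGF1 receptor, a tyrosine kinase closely related to the insulin receptor. INSRR is the remaining member of that receptor family and is not known to bind insulin or the IGFs. The IGF-binding proteins hold IGFs outside the cell, and proteases such as pregnancy-associated plasma protein-A release them. In mice the 3 receptors are jointly required for the normal growth and male fate of the early XY gonad.

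Library totals lay between 25593453 and 31752562 counts. Nuclear ribosomal RNA took 40.7% of the counts at E14.5, against 9.06% at E11.5 and 1.31% and 1.03% on the days between. Levels of 1 gene across days are therefore given as CPM, the count relative to library size after TMM scaling, a scaling that sets the typical gene equal between libraries, and levels of different genes in 1 library as TPM, which accounts for transcript length. A fold change at E14.5 is relative to the typical gene, because scaling by total counts moved the median of all genes by −1.07 on the log2 scale between E13.5 and E14.5. With 1 library per day there is no replicate error and no p-value. Each fold change carries an exact Clopper-Pearson 95% interval that covers counting error only, and "past 2-fold" means a log2 change of at least 1 in size. In pooled tissue, fewer cells of a type and less RNA per cell cannot be told apart.

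Marker genes were read beside the members to see what each pool held. The 6 early gonad somatic markers, among them Nr5a1 and Gata4, summed to 757.8, 1126, 1027 and 889.6 CPM from E11.5 to E14.5, so the labelled tissue was present in every library. The 8 mesonephros markers were all detected each day and summed to 173.9 CPM at E11.5 against 27.6, 22.1 and 26.4 CPM on the later days. The Sertoli cell list, 4 genes of the supporting cells of the testis, went from 84.2 to 517.9, 438.8 and 479.4 CPM. The germ cell list went from 13.9 to 282.9, 360.7 and 287.0 CPM, and the pregranulosa cell list from 120.6 to 172.5, 227.3 and 194.2 CPM. The fetal Leydig cell list, 5 genes of the steroid-producing cells, went from 12.8 to 164.2, 679.8 and 1121 CPM, and its marker Insl3 had 0 counts at E11.5, which allows up to 0.0875 CPM. Summed levels of the remaining lists ranged from 238.6 to 353.1 CPM for endothelial cells, 170.9 to 316.8 for smooth muscle and pericytes, 753.0 to 962.5 for interstitial stroma, 16.8 to 36.8 for macrophages, 60.3 to 105.5 for erythroid cells, 18.8 to 24.6 for neurons and glia and 2.58 to 14.3 for adrenal-type cells.

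The ligand Igf1 lies on chromosome 10 (mm10, chr10:87858270-87937047, plus strand). In order of day from E11.5 to E14.5, it had 2391, 1931, 3814 and 2319 counts. On the CPM scale these were 69.8, 61.5, 96.4 and 123.2. The first 2 days were the low ones and E14.5 the highest, at 2.0 times the E12.5 level. In TPM the levels were 12.0, 12.9, 22.1 and 9.21. The rank of Igf1 by TPM among the 20114 genes was 6922, 7608, 5436 and 4342, so its rank was best at E14.5, where its TPM was lowest.

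Between E12.5 and E13.5 Igf1 was higher by 0.65 on the log2 scale (95% interval 0.57 to 0.73). This was the 457th largest rise among the 13567 genes that reached 100 counts in the higher of both libraries. From E12.5 to E14.5 the change was 1.0 (0.91 to 1.09), on the threshold of 2-fold, but scaled by total counts it was −0.04 and as a ratio of TPM −0.49. A ratio within each library does not depend on the scaling. Day by day, the TPM of Igf1 was 0.296 (0.283 to 0.310), 0.325 (0.309 to 0.342), 0.513 (0.494 to 0.533) and 0.556 (0.529 to 0.583) of that of its receptor Igf1r. The 2 later days stood above the 2 earlier ones in this ratio, with no overlap of the counting intervals.

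Igf2, the other IGF ligand, was the most abundant of the additional ligands and receptors examined. Its TPM was 76.4, 49.9, 28.9 and 19.3 times that of Igf1 on the 4 days in turn. The distance between the 2 ligands became smaller with each day. The insulin genes were at the limit of detection, with 0 counts of Ins1 in all 4 libraries and 0, 4, 3 and 2 counts of Ins2. A count of 0 allows up to 0.0875 CPM at E11.5 and 0.159 CPM at E14.5.

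Igf1r, the main signalling receptor for both IGFs, lies at chr7:67952257-68233668 on the plus strand. It had 11004, 8096, 10131 and 5691 counts from E11.5 to E14.5. Its levels were 321.1, 258.0, 256.0 and 302.3 CPM, highest at E11.5 and nearly equal on the 2 middle days. The difference between E12.5 and E11.5 was −0.32 on the log2 scale (−0.36 to −0.27), but −0.15 scaled by total counts and −0.03 as a ratio of TPM. Between E13.5 and E12.5 the difference was −0.01 (−0.05 to 0.03). At E14.5 Igf1r was 0.24 above E13.5 (0.19 to 0.29) after TMM scaling, whereas its TPM were 43.1 at E13.5 and 16.6 at E14.5.

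Insr, the insulin receptor at chr8:3150922-3279649 on the minus strand, had the flattest course of the 10 genes after TMM scaling. Its 3532, 3032, 4235 and 1926 counts corresponded to 103.1, 96.6, 107.0 and 102.3 CPM, a range of 1.11-fold. The levels at E12.5 and E14.5 differed by 0.08 on the log2 scale (0.00 to 0.17). From E13.5 to E14.5 the change was −0.06 after TMM scaling, but −1.13 by total counts and −1.68 as a ratio of TPM. Per length, Igf1r stood above Insr every day, at 2.40 (2.31 to 2.50), 2.06 (1.97 to 2.15), 1.84 (1.78 to 1.91) and 2.28 (2.16 to 2.40) times its TPM. The ratio was lowest at E13.5.

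Insrr, the insulin receptor-related receptor, known as a sensor of alkaline pH in the kidney, lies at chr3:87796908-87816101 on the plus strand. It was the least abundant member, with 13, 19, 37 and 48 counts. These were 0.379, 0.606, 0.935 and 2.55 CPM, each day higher than the day before, although the counting intervals of neighbouring days overlapped except at the last step. The changes were 0.65 (−0.42 to 1.81), 0.61 (−0.21 to 1.51) and 1.43 (0.80 to 2.11) on the log2 scale. From E12.5 to E14.5 Insrr was 4.11-fold higher, with a log2 change of 2.04 (1.28 to 2.92).

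At E14.5 the level of Insrr depended on the scale, since its TPM was 0.362 at E13.5 and 0.322 at E14.5, a log2 change of −0.17. Compared within each library, the TPM of Insr was 153.2 (89.5 to 287.9), 90.0 (57.5 to 149.6), 64.5 (46.7 to 91.8) and 22.6 (17.0 to 30.8) times that of Insrr. The E14.5 ratio lay below all others, with no overlap of the intervals. Even there Insrr ranked 16043 of 20114 genes by TPM.

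**Figure D1:**
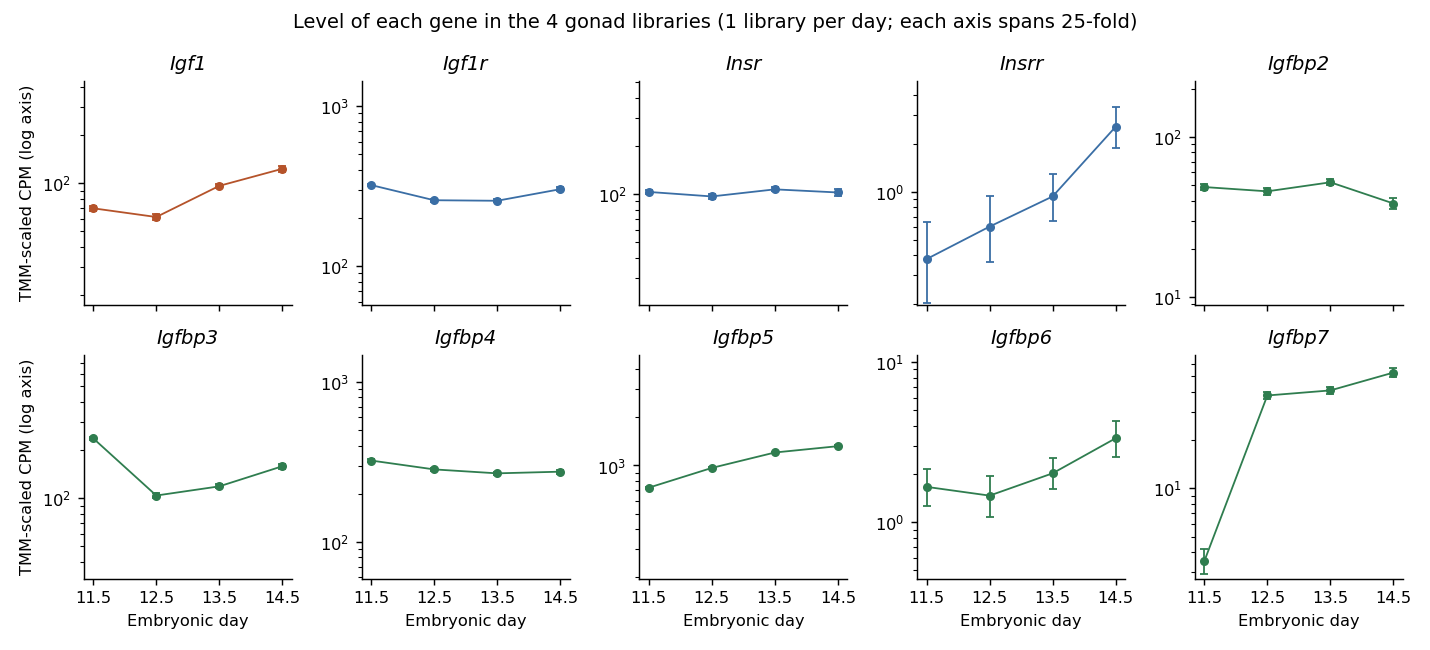
Level of each of the 10 genes from E11.5 to E14.5. The vertical axes are logarithmic, in TMM-scaled CPM, and each spans 25-fold around the gene's own level. Points are single libraries and bars are 95% Poisson counting intervals, with the ligand in orange, receptors in blue and binding proteins in green. Igfbp7 goes from 3.50 to 38.1 CPM in 1 day, while Insr stays between 96.6 and 107.0 CPM.

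Among the binding proteins, Igfbp7 and Igfbp3 moved most and in opposite directions between E11.5 and E12.5. Igfbp7 was 10.8-fold higher and Igfbp3 2.28-fold lower at E12.5, and no other member passed 2-fold in that comparison. Over all 20114 genes, 9.51% were higher past 2-fold and 9.43% lower, against 1 and 1 of the 10 members. The reference promoters of this pair are shown because these 2 genes carry the largest steps with more than 100 counts. RefSeq gives them on GRCm38.p6 as the 250 bases before and 50 bases from the start site, and both are written 5′ to 3′ on the minus strand, Igfbp3 at chr11:7213874-7214173 and Igfbp7 at chr5:77407996-77408295. Capitals mark every match to GGGCGG on either strand.
Igfbp3: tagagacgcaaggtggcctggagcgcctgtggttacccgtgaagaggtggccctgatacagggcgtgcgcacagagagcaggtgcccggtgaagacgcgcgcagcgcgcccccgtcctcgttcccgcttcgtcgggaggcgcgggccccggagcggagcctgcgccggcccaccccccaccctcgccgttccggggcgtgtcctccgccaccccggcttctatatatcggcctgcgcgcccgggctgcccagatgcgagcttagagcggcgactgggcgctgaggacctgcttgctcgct
Igfbp7: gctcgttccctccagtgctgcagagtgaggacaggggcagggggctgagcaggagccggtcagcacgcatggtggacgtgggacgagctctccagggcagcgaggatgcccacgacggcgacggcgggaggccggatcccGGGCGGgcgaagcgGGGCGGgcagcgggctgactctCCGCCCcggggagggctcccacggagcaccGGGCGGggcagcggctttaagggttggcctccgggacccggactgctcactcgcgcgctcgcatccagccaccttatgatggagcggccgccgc

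Both promoters were of high GC content, at 71.7% for Igfbp3 and 73.3% for Igfbp7 against a median of 52.7% over 32851 RefSeq promoters of the same length. Igfbp7 held 4 matches to GGGCGG, the core of the box bound by Sp-family factors, starting at −110, −96, −74 and −44 from the start site, and 35.7% of all promoters held at least 1. Igfbp3 held none of the 4 motifs searched on both strands, which were GGGCGG, the TATA box core TATAAA, the CCAAT box core CCAAT and the nuclear receptor half-site AAGGTCA. Among the 8 members with a promoter in the table, GGGCGG was also found in Igf1r, at −43 and −26, and in the upstream promoter of Igfbp2. TATAAA was found in Igfbp4 at −28 and Igfbp6 at −148, against 13.6% of all promoters. CCAAT was found in Igf1 at −142 and in Igfbp6 at −107 and −50, against 37.4% of all promoters. AAGGTCA, recognised by NR5A1 among others, was found in Igf1r at −86 and in no other member, against 4.72% of all promoters. These are matches to exact letters only, so a near match such as the tatatat in the Igfbp3 sequence above was not counted. Igfbp5 held none of the 4 motifs, and Insr and Insrr had no entry.

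Igfbp7, a secreted protein of the vessel wall and stroma that binds IGFs weakly and also binds insulin, lies at chr5:77349240-77408045 on the minus strand. It had 120 counts at E11.5 and 1194, 1620 and 996 on the following days. Its levels were 3.50, 38.1, 40.9 and 52.9 CPM, so E11.5 stood far below the other 3 libraries, which lay within 1.39-fold of one another on this scale. The step from E11.5 to E12.5 was 3.44 on the log2 scale (3.17 to 3.73), the 78th largest rise among the 13626 genes that reached 100 counts. By TPM it moved from rank 10955 to rank 1678 of 20114 genes. The next step was 0.11 (0.00 to 0.21), and its interval reached 0.

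The exons of Igfbp7, 1213 bases in all, share 89 bases with Polr2b, an RNA polymerase II subunit gene on the opposite strand. The library kit kept the strand of each read, but the strand setting used in counting was not given in the sources used here. Polr2b had 3072, 3313, 4143 and 1824 counts. Reads in the shared bases alone were not counted, and their part in the Igfbp7 counts was not tested.

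Igfbp3, the main carrier of IGFs in serum and a secreted protein of many stromal cells, lies at chr11:7206086-7213923 on the minus strand. It had 8111 counts at E11.5 and 3259, 4692 and 2981 on the later days, or 236.7, 103.9, 118.6 and 158.4 CPM. E11.5 was the highest library and E12.5 the lowest. The change from E11.5 to E12.5 was −1.19 on the log2 scale (−1.25 to −1.13), the 623rd lowest of 13626 genes, and as a ratio of TPM it was −0.90, which does not pass 2-fold. Later steps were smaller, at 0.19 (0.13 to 0.26) and 0.42 (0.35 to 0.48), and the last of these is −0.64 when scaled by total counts. Igfbp1, which ends 3539 bp from Igfbp3 on the same chromosome, had 10, 2, 1 and 1 counts.

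The TPM of Igfbp7 was 0.0299 of that of Igfbp3 at E11.5 (0.0247 to 0.0357). On the later days it was 0.739 (0.691 to 0.790), 0.697 (0.658 to 0.737) and 0.674 (0.627 to 0.724). Beside this step, 6 of the 8 mesonephros markers were lower past 2-fold at E12.5, as were 3 of the 4 macrophage markers in the files, 2 of the 4 neuron and glia markers and 2 of the 3 adrenal-type markers. The 2 adrenal-type markers were near the floor, Cyp21a1 with 8 and 1 counts and Cyp11b1 with 5 and 1. Higher past 2-fold were 3 of the 4 Sertoli cell markers, all 5 fetal Leydig cell markers, all 5 germ cell markers, 3 of the 5 pregranulosa cell markers and 3 of the 6 early gonad somatic markers. Of the smooth muscle and pericyte list 1 was higher and 1 lower, and no endothelial, stromal or erythroid marker passed 2-fold. Their part in the change of Igfbp3 and Igfbp7 was not tested.

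Igfbp5, a conserved binding protein that attaches to extracellular matrix, lies at chr1:72858065-72874865 on the minus strand and had the most counts of any member. The counts were 24889, 30282, 47706 and 24854, or 726.3, 965.1, 1205 and 1320 CPM. Each library was higher than the one before on this scale, by 0.41 (0.39 to 0.43), 0.32 (0.30 to 0.34) and 0.13 (0.11 to 0.15) in log2, but the last step was −0.93 when scaled by total counts. By TPM Igfbp5 ranked 428, 293, 211 and 271 among 20114 genes.

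Igfbp4, which inhibits IGF action until it is cut by pregnancy-associated plasma protein-A, lies at chr11:99041260-99052646 on the plus strand. Its counts were 11054, 8909, 10613 and 5171 and its levels 322.6, 283.9, 268.2 and 274.7 CPM, within a range of 1.20-fold. The largest step was −0.18 (−0.22 to −0.14), between E11.5 and E12.5, but 0.10 as a ratio of TPM. Igfbp5 had 0.796 (0.778 to 0.814), 1.20 (1.17 to 1.23), 1.59 (1.56 to 1.62) and 1.70 (1.65 to 1.75) times the TPM of Igfbp4 on the 4 days. The order of these 2 genes thus turned between E11.5 and E12.5, and the ratio was higher on each later day.

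Igfbp2, a binding protein of many embryonic epithelia, lies at chr1:72824480-72852474 on the plus strand, and its 3′ end faces that of Igfbp5 with a gap of 5590 bp. It had 1666, 1434, 2060 and 722 counts, or 48.6, 45.7, 52.1 and 38.4 CPM. The first 3 days were close together and E14.5 was the lowest. Between E13.5 and E14.5 it was lower by 0.44 on the log2 scale (−0.56 to −0.32) after TMM scaling. With that scaling it was the only member whose interval lay below 0 in the comparison. By total counts the change of Igfbp2 was −1.50 and as a ratio of TPM −2.06. In these settings 9 and 10 members were below 0. The TPM of its neighbour Igfbp5 was 3.77, 5.33, 5.85 and 8.69 times that of Igfbp2 on the 4 days.

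Igfbp6, a binding protein that prefers IGF2 over IGF1, lies at chr15:102144186-102149512 on the plus strand. With 57, 46, 80 and 63 counts it was the scarcest binding protein, at 1.66, 1.47, 2.02 and 3.35 CPM. Its intervals reached 0 at the first 2 steps, −0.18 (−0.78 to 0.40) and 0.46 (−0.08 to 1.02), and lay above 0 at the third, 0.72 (0.23 to 1.22). From E12.5 to E14.5 it was 2.27-fold higher after TMM scaling, a log2 change of 1.18 (0.62 to 1.77), whereas the ratio of TPM gave −0.30.

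**Figure D2:**
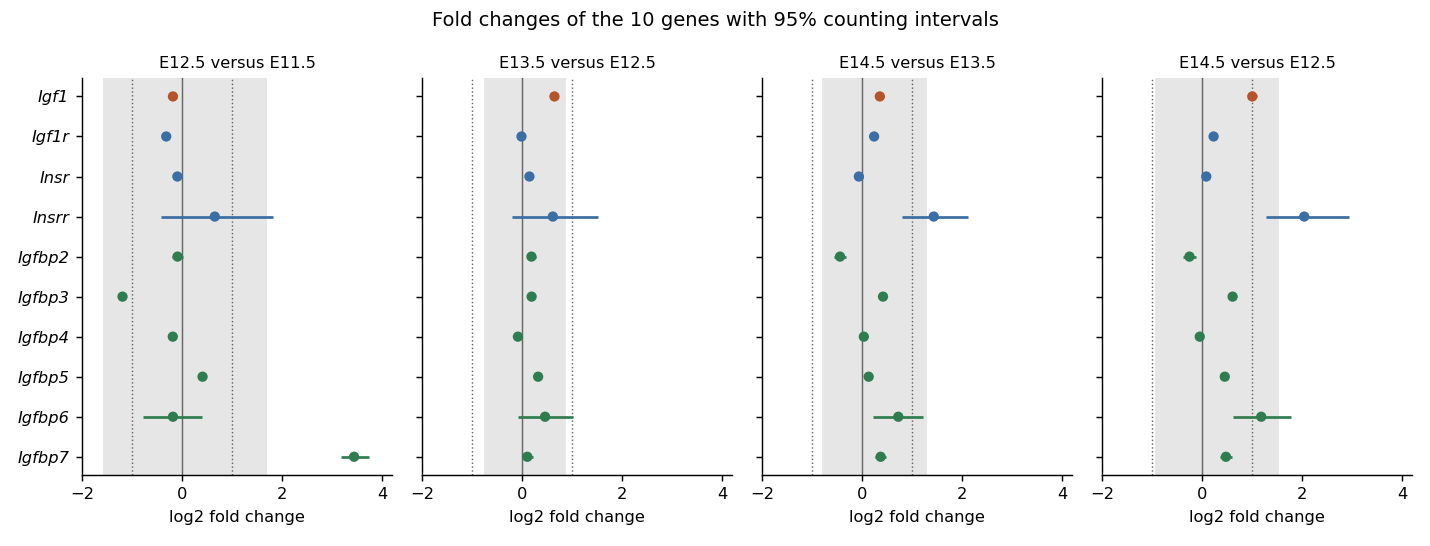
Log2 fold change of each gene in 4 comparisons, later minus earlier day, after TMM scaling. Points are fold changes, lines are 95% counting intervals (shorter than the point for abundant genes), dotted lines mark 2-fold and grey bands hold the middle 90% of all 20114 genes. Igfbp7 at 3.44 and Insrr at 1.43 and 2.04 lie outside the bands. As ratios of TPM all 10 genes are lower at E14.5 than at E13.5 and 9 of 10 lower than at E12.5. The median of all 20114 genes moved by −1.62 and −1.48 as a ratio of TPM in these comparisons.

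Read over all 10 members, the step from E11.5 to E12.5 had a median log2 change of −0.14, against 0.00 over all genes. From E12.5 to E13.5 no member passed 2-fold, where 3.72% of all genes were higher and 2.71% lower past that fold, and the median was 0.19. From E13.5 to E14.5 only Insrr passed it, against 7.08% of all genes higher and 3.43% lower, with a median of 0.30. Between E12.5 and E14.5 3 members, Insrr, Igf1 and Igfbp6, were higher past 2-fold and none lower, against 9.42% and 4.54% of all genes, with a median of 0.46. Scaled by total counts, 1 member was higher and 2 were lower in that comparison, and all genes split into 579 higher and 10809 lower instead of 1895 and 914. From E13.5 to E14.5 the split was 409 higher and 12003 lower in place of 1424 and 689. As ratios of TPM, all 10 members were lower at E14.5 than at E13.5 and all but Insrr lower than at E12.5. On that scale 17518 of all 20114 genes were lower past 2-fold than at E13.5, and 16134 than at E12.5. The comparisons share libraries and are not independent of one another.

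Insrr and Igfbp6, both under 100 counts, were 2 of the 3 members past 2-fold from E12.5 to E14.5. Beside them and Igf1, all 5 fetal Leydig cell markers, 3 of the 5 smooth muscle and pericyte markers and 2 of the 3 adrenal-type markers were higher past 2-fold from E12.5 to E14.5, as was 1 marker each of the pregranulosa cell, erythroid, and neuron and glia lists. The 2 adrenal-type markers, Cyp21a1 and Cyp11b1, each had 1 count at E12.5, and the neuron and glia marker, Th, had 2. Lower past 2-fold was 1 germ cell marker, Nanog, with 15.2 CPM at E12.5 and 4.94 at E14.5. No mesonephros, Sertoli cell, endothelial, stromal, macrophage or early gonad somatic marker passed 2-fold. Of all genes, 9.42% were higher and 4.54% lower past 2-fold. The part of all these markers in the changes of the members was not tested.

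The order of the members by TPM within a library shows which transcripts prevailed. At E11.5 Igfbp4 led with 240.7 TPM, followed by Igfbp5 with 191.5 and Igfbp3 with 149.3. From E12.5 on Igfbp5 led, with 310.2, 423.9 and 151.1 TPM, and Igfbp4 was next with 258.2, 266.8 and 89.0. Igfbp3 held the third place every day, with 79.9, 99.7 and 43.4 TPM after E11.5. Insrr was last each day and Igfbp6 next to last.

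In the middle of the order some neighbours could not be separated by their counting intervals. These were Igfbp7 with 59.0 and Igfbp2 with 58.2 TPM at E12.5, and the same pair at E13.5 with 69.5 and 72.5 TPM. Insr and Igf1 at E13.5, with 23.4 and 22.1 TPM, also overlapped, as did Igfbp2 and Igf1r at E14.5, with 17.4 and 16.6 TPM. All other neighbours in the 4 libraries had intervals that did not overlap.

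**Figure D3:**
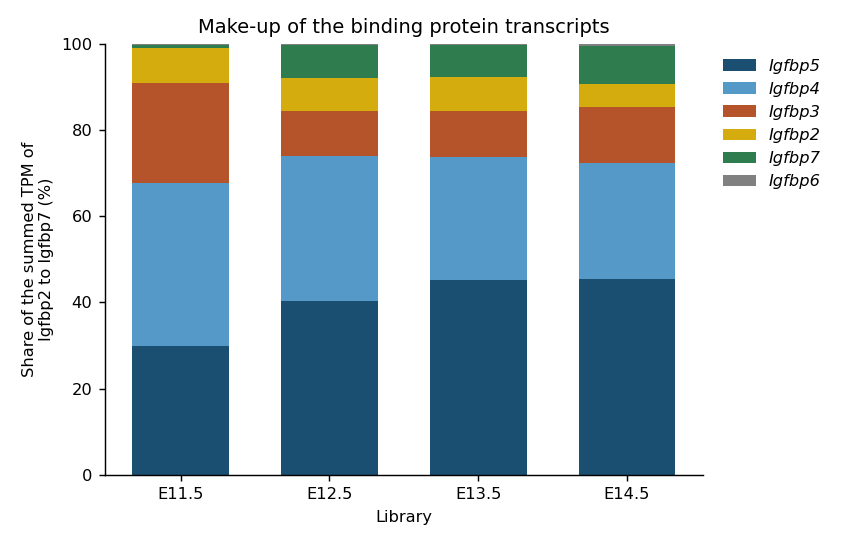
Share of each binding protein in the summed TPM of Igfbp2 to Igfbp7, as stacked bars for the 4 libraries on a linear axis from 0 to 100%. Igfbp5 goes from 30.0% at E11.5 to 45.6% at E14.5, Igfbp3 from 23.4% to 13.1% and Igfbp7 from 0.698% to 8.81%.

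The 6 binding proteins summed to 638.7, 767.6, 935.6 and 331.8 TPM. Igfbp5 took 30.0%, 40.4%, 45.3% and 45.6% of the sum. Igfbp4 took 37.7%, 33.6%, 28.5% and 26.8%, a smaller share each day. Igfbp3 went from 23.4% to 10.4% and then stood at 10.7% and 13.1%. Igfbp7 went from 0.698% to 7.69%, 7.43% and 8.81%, and so stood beside Igfbp2, with 7.95%, 7.58%, 7.75% and 5.24%. Igfbp6 stayed between 0.279% and 0.524%.

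**Figure D4:**
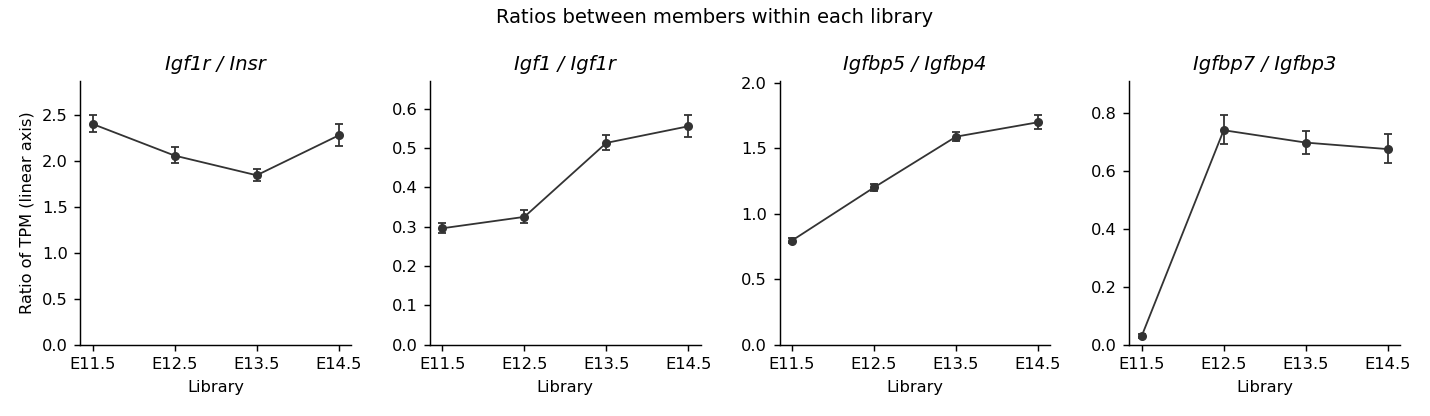
Ratios of TPM between 4 pairs of members within each library, on linear axes from 0. Points are single libraries and bars are 95% counting intervals. Igfbp7 over Igfbp3 goes from 0.0299 to 0.739 between E11.5 and E12.5, and Igf1 over Igf1r from 0.325 to 0.513 between E12.5 and E13.5.

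The genes around the members were read from a list of 51, of which 46 passed the filter. It holds relatives of the binding proteins, further ligands and receptors, proteases and their inhibitors, adaptors, the PI3K and AKT kinases with their targets, and the proteins that bind Igf2 mRNA. At E12.5 against E11.5, 9 of the 46 were higher and 2 lower past 2-fold, with a median of 0.06, against 9.51% and 9.43% of all genes. From E12.5 to E13.5 the counts were 1 and 0, against 3.72% and 2.71% of all genes, with a median of −0.07. From E13.5 to E14.5 they were 1 and 1, against 7.08% and 3.43%, with a median of −0.04. From E12.5 to E14.5 they were 3 and 4, against 9.42% and 4.54%, with a median of −0.08. The medians over all genes lay between −0.01 and 0.00.

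A group of 6 genes holds proteases that act on binding proteins outside the cell, and inhibitors of such proteases. Of these 6, 4 were higher past 2-fold at the first step and none lower, and both kinds were among the 4. The median was 1.26, where 9.51% of all genes were higher. Htra1, a secreted protease, went from 120 to 628 counts, a log2 change of 2.51 (2.23 to 2.81). Stc1, a stanniocalcin that inhibits pregnancy-associated plasma protein-A, went from 462 to 1189 counts (1.49, 1.33 to 1.65). Stc2 and Pappa2, named after their values were seen, were higher by 1.55 and 1.02. Adam12, a metalloprotease also named after its value was seen, was at −0.78, with 51.8 and 30.2 CPM. Pappa, which encodes the protease that cuts IGFBP4, was not past 2-fold there, with 889 and 770 counts. It reached 1643 and 1162 counts on the next 2 days, or 24.5, 41.5 and 61.7 CPM from E12.5 to E14.5, a log2 change of 1.33 (1.20 to 1.46), although its TPM were 4.19 at E12.5 and 3.75 at E14.5.

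Relatives that share the IGFBP domain moved both ways. Kazald1, a secreted protein with an IGFBP domain, went from 12 to 155 counts at E12.5 (3.76, 2.97 to 4.80) and on to 421 at E13.5 (1.10, 0.84 to 1.38). Igfbpl1 went from 29 to 167 counts at E12.5 (2.63, 2.08 to 3.28) and from 174 to 41 between E13.5 and E14.5 (−1.01, −1.54 to −0.52). Ctgf, a matrix protein of the CCN family, went from 1343 to 4278 counts at E12.5 (1.80, 1.71 to 1.89) and was lower by 1.29 from E12.5 to E14.5. Cyr61, the most abundant of these relatives, had 13179, 21471, 23294 and 7320 counts and did not pass 2-fold after TMM scaling. The TPM of Cyr61 were 292.7, 634.9, 597.5 and 128.5, which differ past 2-fold at the first and last steps. Igfals, listed in the same group but not one of the genes with an IGFBP domain, had 4, 3, 9 and 1 counts. Its protein joins IGFBP3 and an IGF in serum.

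Of 16 genes of the PI3K and AKT group, 1 passed 2-fold at the first step, Pik3cb, named after its value was seen, with 371 and 781 counts (1.20), and none in the other comparisons. Of all genes, 9.51% were higher and 9.43% lower past 2-fold at the first step. The shares were 3.72% and 2.71% from E12.5 to E13.5, 7.08% and 3.43% from E13.5 to E14.5, and 9.42% and 4.54% from E12.5 to E14.5. Akt1, the most abundant of the group, had 150.3, 153.4, 151.1 and 156.1 CPM. Among 10 adaptors, Grb14, which inhibits the insulin receptor, went from 234 to 686 counts at E12.5 (1.68, 1.46 to 1.90). Irs4, an insulin receptor substrate named after its values were seen, had 41, 17, 15 and 31 counts, with log2 changes of −1.12 at the first step and 2.07 at the last. Grb10, the abundant imprinted relative of Grb14, went from 1010 to 535.6 CPM between E11.5 and E12.5, a log2 change of −0.92. Igf2bp1, an RNA-binding protein that binds Igf2 mRNA, was lower every day, with 364.4, 195.2, 120.3 and 77.1 CPM, and by 1.34 from E12.5 to E14.5. Igf2bp2, the most abundant of these 3 binding proteins by TPM, had 205.8, 162.3, 145.0 and 124.6 CPM.

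**Figure D5:**
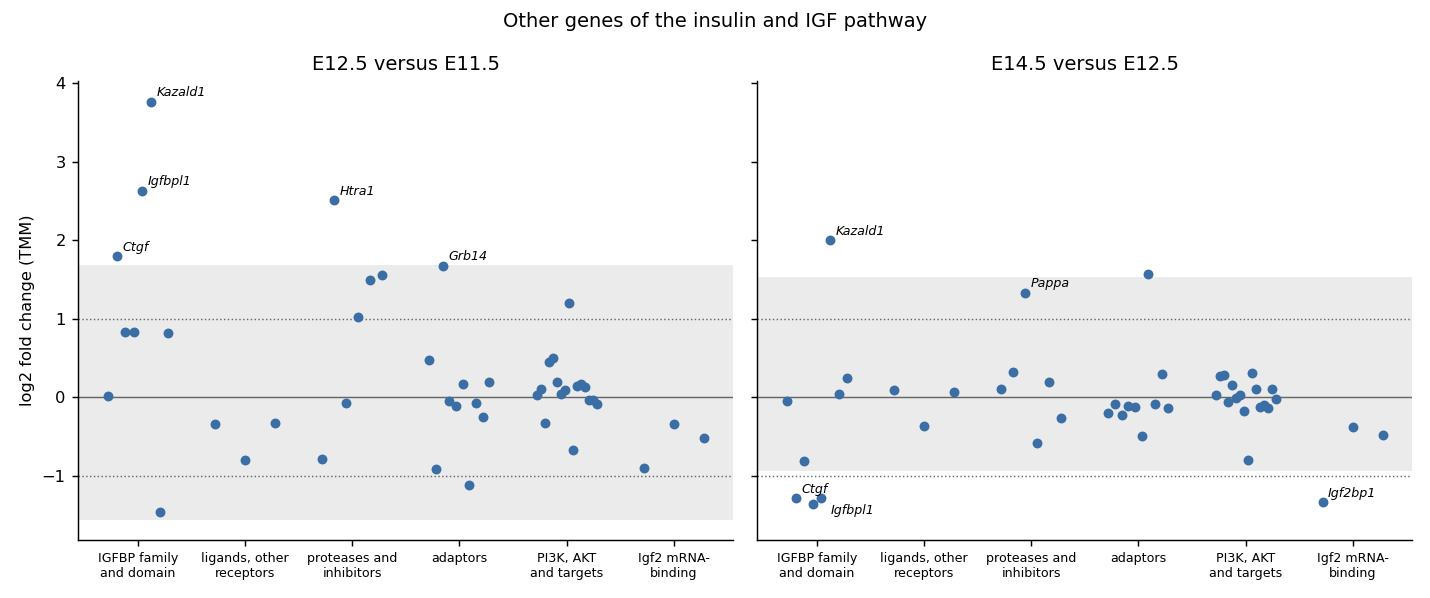
Log2 fold change of the 46 further pathway genes in 6 groups, for E12.5 against E11.5 and E14.5 against E12.5 after TMM scaling. Each point is a gene, dotted lines mark 2-fold, grey bands hold the middle 90% of all 20114 genes, and names mark up to 5 largest changes in each direction past 2-fold, at 100 counts or more. Kazald1, at 3.76 in the left panel, is the highest point, and in the PI3K and AKT group Pik3cb lies past 2-fold at 1.20 in the left panel and within it at −0.80 in the right.

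The genes whose levels followed a member most closely over the 4 libraries were sought among 14070 genes with at least 100 counts in their highest library. The measure was the Euclidean distance between log2 CPM values after each gene's mean was removed, and it rests on 4 points only. For Igfbp7 the nearest genes were Fkbp6, Susd3 and Chp2, at distances of 0.10, 0.21 and 0.26. Fkbp6, a co-chaperone needed for male meiosis, had 1.72, 17.1, 18.8 and 24.7 CPM. For Igfbp3 they were Ebf1, Clip3 and Ctsc, at 0.08, 0.09 and 0.09. Ebf1, a transcription factor of B cells and stroma, had 17.8, 8.10, 8.59 and 11.6 CPM. For Igf1 they were Spsb1, Slc16a7 and Tbxa2r, at 0.07, 0.10 and 0.13, and Spsb1 had 13.8, 11.8, 18.0 and 23.0 CPM.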

How the data were processed

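RNA from mouse gonad pools was sequenced daily from E11.5 to E14.5, with 1 library per day, grouped by the deposited labels. Libraries were made with the SEQuoia Complete Stranded kit after depletion of ribosomal RNA with probes and RNase H. The authors trimmed reads with cutAdapt, aligned them with STAR (mm10), collapsed UMIs with UMI-tools and counted them per gene with featureCounts, and the deposited counts were used as they stand. The deposited TPM were made by the authors from these counts and each gene's exon length, which was checked in the files. The study describes its mapped reads as unique ones. Tool versions were not given in the sources used here. The RPKM columns were not used.

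Calculations used R 4.3.3, edgeR 4.0.16, DESeq2 1.42.0 and Python 3.11.15 (pandas 2.3.3, numpy 2.4.6, matplotlib 3.10.9, scipy 1.17.1). Genes were kept by filterByExpr and scaled by TMM over all 4 libraries, and log2 fold changes used a prior count of 0.5. Intervals are exact Clopper-Pearson 95% intervals of the later library's share of both counts, or Poisson intervals of a single count, and cover counting error only. The floor for a count of 0 is 3 counts, or 0.0875, 0.0956, 0.0758 and 0.159 TMM-scaled CPM in the 4 libraries. The calculation of fold changes was tested on simulated data.

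The members, gene lists and comparisons were chosen with earlier results of these data known. Named besides the members are the pathway genes with up to 5 largest rises and 5 largest falls past 2-fold at 100 counts or more, the most abundant gene of each group, and the 3 genes nearest in pattern to each of 3 members. Alternatives were DESeq2 size factors, total counts, TMM without ribosomal RNA and abundant genes, TMM of each pair, the TPM ratio, a prior count of 2, other filters, a fold of 4, and edgeR exact tests at preset variability.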

Additional observations from a re-analysis of the deposited data

How the results depend on the processing

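Of 240 member fold changes recomputed under 6 settings of scaling or prior count, all 160 under DESeq2 size factors, TMM without ribosomal RNA and abundant genes, TMM of each pair and a prior count of 2 kept their direction and stayed within counting error. Under total counts 12 of 40 did so and 1 reversed, and under the ratio of TPM 5 of 40 did so and 3 reversed. The reversals were Insrr from E13.5 to E14.5 (−0.17 by TPM), and from E12.5 to E14.5 Igf1 (−0.037 by total counts and −0.49 by TPM) and Igfbp6 (−0.30 by TPM). Members not past 2-fold included, the sign changed for 16 of 40 values under total counts, 22 of 40 under TPM and 0 under the other 4 settings. Both settings shift all genes at E14.5, where the median moved by −1.07 under total counts and −1.62 under TPM from E13.5. Not all sign changes involved E14.5. At E12.5 against E11.5 there were 2 under total counts and 5 under TPM, where the median moved by 0.159 and 0.283. At E13.5 against E12.5 there were 1 and 2, with medians of 0.028 and 0.133.

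The number of members past 2-fold at E12.5 against E11.5 was 2, and 1 by TPM, at a preset variability of 0.4 or at a fold of 4, where Igfbp7 remained. From E13.5 to E14.5 it was 1, Insrr, which was higher, and 0 at a variability of 0.2 or 0.4 or a fold of 4. By total counts it was 3 and by TPM 8, all of them lower and none of them Insrr. From E12.5 to E14.5 it was 3, all higher, but 1 at a variability of 0.2 or a fold of 4, where Insrr remained, and 0 at 0.4. By TPM it was 6, all lower and none of them among those 3. By total counts it was also 3, but with Insrr higher and Igfbp2 and Igfbp4 lower. No setting gave a member past 2-fold from E12.5 to E13.5.

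Counts over all genes depended on filter and test, and in the comparisons with E14.5 also on scaling. Against 3809 genes past 2-fold at E12.5, no filter gave 9711, at least 10 counts in both libraries 2232, variabilities of 0.2 and 0.4 1824 and 283, and a fold of 4 1408. Against 1294 at E13.5 these were 6760, 494, 51, 1 and 245, and a variability of 0.1 gave 364. Against 2113 from E13.5 to E14.5 they were 8194, 1117, 485, 31 and 581, with 936 at 0.1, 12412 by total counts and 17737 by TPM. Against 2809 from E12.5 to E14.5 they were 9041, 1466, 800, 71 and 810, with 1502 at 0.1, 11388 by total counts and 16480 by TPM. The exact tests compare 2 libraries at an assumed variability, not the days. Beyond the shift at E14.5, the cause was not tested.

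Insrr and Igfbp6 rest on at most 48 and 80 counts, so changes of them smaller than their intervals were not detectable at this depth. No paired analysis was possible because each day has 1 library.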
